A study of Mus musculus with 9 samples.

Results

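The 10 genes described here belong to the fibroblast growth factor (FGF) system, and they were followed in epithelial cells sorted from the trachea of mice: the receptor genes Fgfr1, Fgfr2 and Fgfr3, the ligand genes Fgf1, Fgf2 and Fgf18, the carrier gene Fgfbp1, and the Sprouty genes Spry1, Spry2 and Spry4. The members are all probe sets that the platform annotation pairs with these 10 genes, 21 of the 45037 probe sets tested, against 18193 genes on the array with a symbol of their own. All animals were hemizygous for the KRT5-GFP transgene, in which the promoter of keratin 5, a keratin of airway basal cells, drives green fluorescent protein. Tracheal cells were separated by their fluorescence and by binding of the lectin GSI-A3B, and each of 3 gates was measured on 3 arrays that the labels describe as biological replicates. Cells with both reporter and lectin form the GFP+ gate, which the labels name basal cells. Cells that bound the lectin without reporter form the lectin-only gate, which the labels also name basal cells. Cells with neither mark form the columnar gate, named columnar epithelium. The age and sex of the animals, and whether cells of several animals were pooled for an array, are not given in the sources used here, so p-values measure the spread between these arrays. The gates share the transgene, the digestion and the sort, and no untreated or unsorted sample was analysed here.

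Most FGFs are secreted proteins that bind heparan sulphate and switch on receptor tyrosine kinases encoded by Fgfr1 to Fgfr4. The active receptors recruit adaptor proteins and start the RAS and ERK kinase cascade, and Sprouty proteins, whose genes are induced by that cascade, dampen it as a negative feedback. In the developing airway, FGF10 from the mesenchyme acts on an epithelial form of FGFR2 to drive branching, and FGFR2 signalling has been linked to the upkeep of basal cells in the adult trachea.

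The gates carried the markers of their labels, with markers of other cell types beside them. The basal cell list (15 genes measured) had a mean log2 signal of 11.29 to 11.56 on the GFP+ arrays, 10.18 to 10.46 on the lectin-only arrays and 7.10 to 7.43 on the columnar arrays. Krt5 itself had gate means of 13.43 in GFP+, 12.88 in lectin-only and 7.95 in columnar cells, and Trp63, the basal cell transcription factor p63, of 13.06, 11.94 and 7.62. Since the KRT5 promoter drives the reporter, Krt5 is not independent of the sort on fluorescence. Krt5 did not pass between GFP+ and lectin-only cells, at 0.55 ± 0.45 (limma adjusted p = 0.769). Ciliated markers (12 genes) ran the other way, from 8.82 to 9.26 in the columnar gate through 6.68 to 7.71 to 5.41 to 6.23 in the GFP+ gate, with Foxj1, which sets up motile cilia, at 7.30, 5.44 and 4.09. Secretory markers (12 genes) were at 12.22 to 12.41 in the columnar gate, 11.18 to 11.57 in the lectin-only gate and 9.99 to 10.81 in the GFP+ gate. Of these 12, 6 were called lower in GFP+ than in columnar cells and 6 did not pass. Scgb1a1, the club cell secretoglobin, was among the latter, with means of 13.64 to 13.74 in all gates. The 6 that did not pass were bright in every gate, with gate means of 13.29 to 14.10. Whether probe sets this bright can show a difference was not tested. Leukocyte markers (15 genes) stood at 9.24 to 9.92 in the lectin-only gate, against 6.41 to 7.58 in the GFP+ gate and 5.75 to 6.23 in the columnar gate, and 12 of the 15 were called higher in lectin-only than in columnar cells. Ptprc, which encodes CD45, had means of 8.95 in lectin-only, 5.41 in GFP+ and 3.25 in columnar cells. Fibroblast markers (10 genes) stood at 4.84 to 5.26 in the GFP+ gate, 6.0 to 6.57 in the lectin-only gate and 5.42 to 5.81 in the columnar gate, and their members went both ways, with 2 higher and 3 lower in GFP+ than in columnar cells. The fibrillar collagen genes Col1a1, Col1a2 and Col3a1 were lower there, by log2 differences of -3.20 ± 0.49, -3.36 ± 0.51 and -3.88 ± 0.44 (limma adjusted p = 0.00301, 0.00302 and 5.62e-04). The matrix protein genes Dcn and Fbln1 were higher, by 4.36 ± 0.21 and 3.37 ± 0.42 (adjusted p = 7.3e-06 and 9.9e-04). In lectin-only against columnar cells 3 fibroblast markers were higher (Dcn, Fbln1 and Thy1) and limma called 0 lower (0 by unadjusted p). Endothelial markers (8 genes) were at 4.51 to 4.74 in the lectin-only gate and 3.43 to 3.80 in the others, with 2 of 8 under the background level in GFP+ and 3 of 8 in columnar cells. Smooth muscle and cartilage markers (10 genes) were at 4.64 to 4.88 in the lectin-only gate. They were at 4.02 to 4.49 in the GFP+ gate and 3.89 to 4.07 in the columnar gate. Of these 10, 1 was called higher than in columnar cells in each lectin-binding gate. Neural markers (6 genes) were at 4.46 to 4.80 in the columnar gate, 4.05 to 4.29 in the lectin-only gate and 3.74 to 3.98 in the GFP+ gate. The part of these other cells in the values below was not tested. Replicate 3 of the lectin-only gate stood apart from the other arrays: its median signal was 5.43 against 4.90 to 5.16 on the other 8, and 73.0% of its probe sets lay above the background level against 65.3% to 66.3%. GFP+ replicate 1 stood apart by another measure: 124 genes lay at least 2 log2 units below both other arrays of its gate, against 0 to 36 on the other 8 arrays.

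Each gene is represented below by its brightest probe set on average, and is called where the limma adjusted p was under 0.05 and the gates differed by at least 1 on the log2 scale. The background level, a log2 signal of 3.56, is the 95th percentile of the signals of 80 probe sets for olfactory and vomeronasal receptors, taken as silent here. In these bulk samples, fewer cells of a type and less RNA per cell cannot be told apart.

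Between GFP+ and columnar cells, Spry1 and Spry4 were higher and Fgfr1 was lower in the GFP+ gate, and the other 7 genes did not pass. The 2 of 10 higher and 1 of 10 lower stand beside 5.36% and 4.96% of all genes. Between lectin-only and columnar cells, Fgfr1 was lower and limma called 0 of the 10 higher, where 1 had an unadjusted p under 0.05 and a positive difference. The background there was 5.85% of all genes higher and 2.05% lower (1065 and 373, or 891 and 635 with arrays centred on their medians). Between GFP+ and lectin-only cells, Spry1 was higher and limma called 0 lower, where 0 had an unadjusted p under 0.05 and a negative difference. The background was 0.654% of all genes higher and 2.09% lower (119 and 381, or 196 and 354 with arrays centred). By probe set, 6 of 21 were called in GFP+ against columnar (7% of all probe sets), 2 of 21 in lectin-only against columnar (5.08%), and 2 of 21 in GFP+ against lectin-only (1.63%). Arrays of the gates compared did not overlap for 7, 2 and 4 of the 10 genes in the same order, where 33.6%, 24.6% and 18.6% of all genes were separated in this way. The comparisons share arrays pairwise and are not independent.

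**Figure D1:**
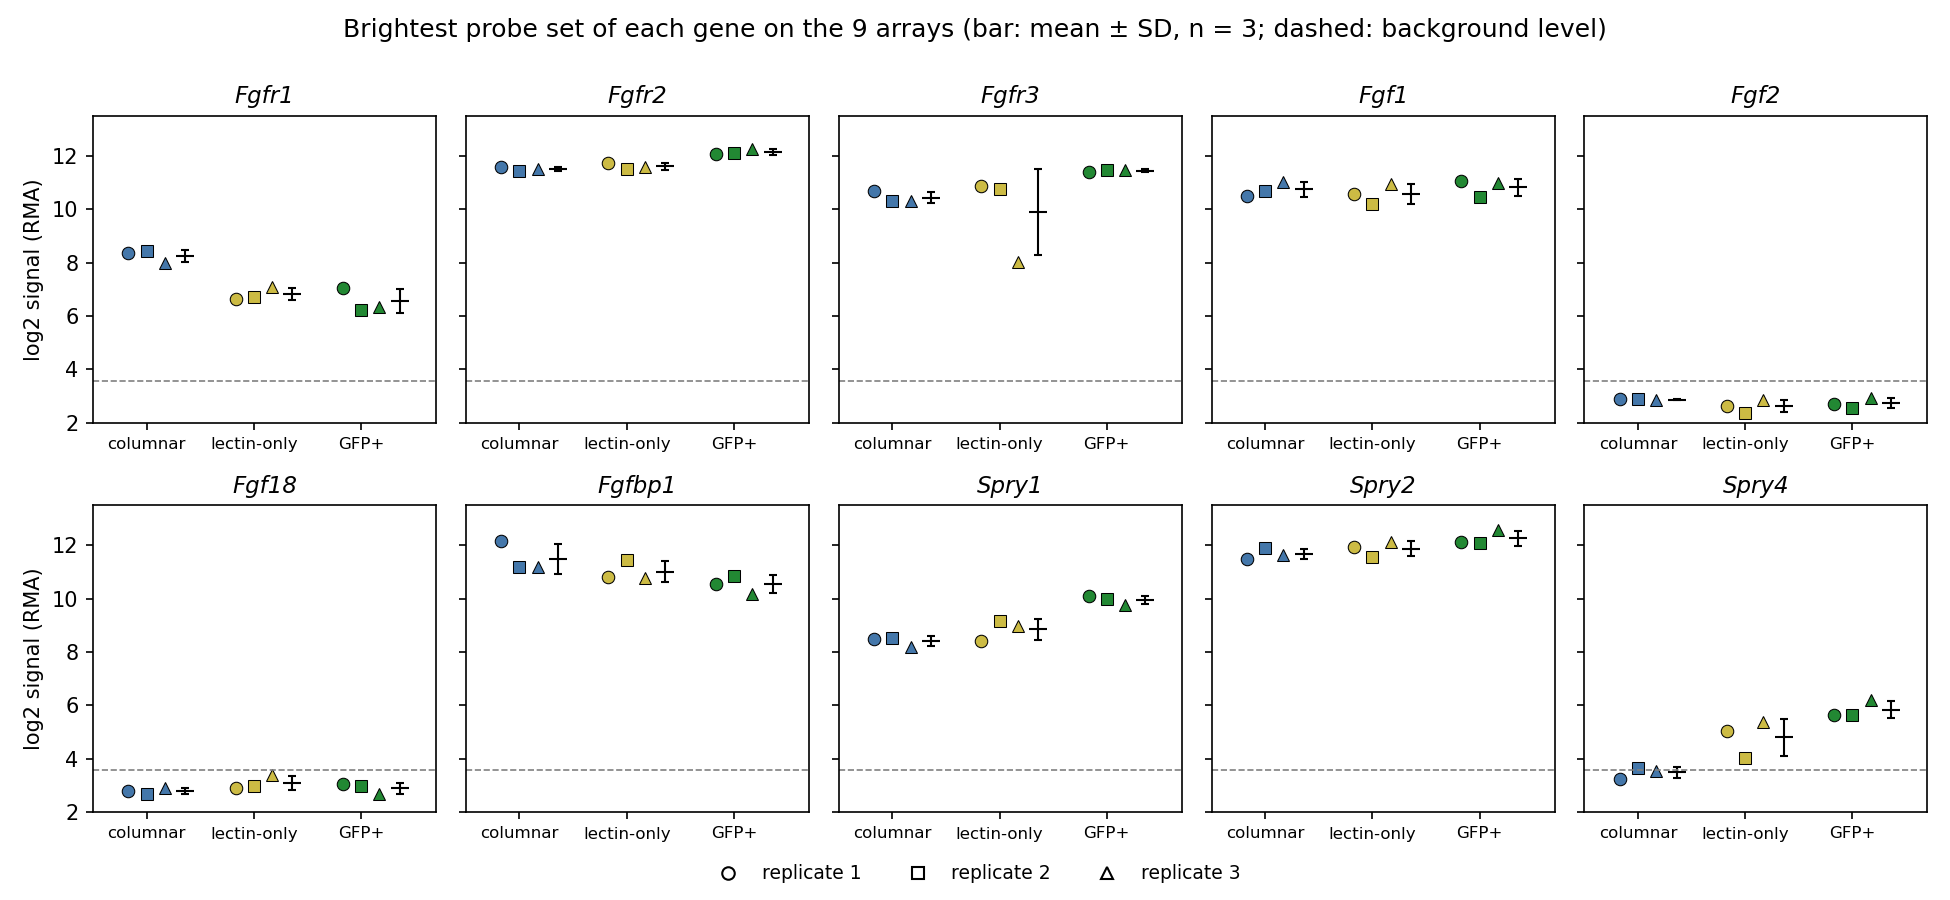
Log2 signal (vertical axis) of the brightest probe set of each of the 10 genes on every array, by gate, with the mean and SD of 3 arrays and the background level of 3.56 as a dashed line. Fgfr1 is lower in both lectin-binding gates, Spry1 and Spry4 are highest in the GFP+ gate, Fgf2 and Fgf18 lie under the dashed line on all 9 arrays, and 1 lectin-only array is low for Fgfr3 (8.03).

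Fgfr1, which encodes a receptor widely expressed in mesenchyme and in many epithelia, was the receptor gene with less signal in both lectin-binding gates. Its brightest probe set, 1424050_s_at, read 8.35, 8.42 and 8.0 on the 3 columnar arrays, 6.64, 6.72 and 7.07 on the lectin-only arrays, and 7.06, 6.24 and 6.34 on the GFP+ arrays. Every columnar array lay above every array of the other gates, and the lectin-only and GFP+ arrays overlapped. GFP+ cells were lower than columnar cells by a log2 difference of -1.71 ± 0.25 (limma SE, adjusted p = 0.00253), a 3.28-fold difference, and lectin-only cells by -1.45 ± 0.25 (adjusted p = 0.00902), 2.73-fold. Both calls held under all 17 alternatives, with adjusted p between 0.00141 and 0.0150 and between 0.00316 and 0.0416. GFP+ and lectin-only cells differed by -0.26 ± 0.25, with a 95% interval of -0.83 to 0.31, and did not pass.

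The other Fgfr1 probe sets pointed the same way with less certainty. Probe set 1436551_at read 8.34, 7.24 and 7.02 in columnar cells, 6.0, 5.69 and 5.18 in lectin-only cells and 6.34, 6.32 and 5.51 in GFP+ cells. It was called at -1.90 ± 0.38 in lectin-only against columnar (adjusted p = 0.0179) and at -1.48 ± 0.38 in GFP+ against columnar (adjusted p = 0.0453). The latter call was lost in 11 of 16 alternatives, among them leaving out any lectin-only or GFP+ array or columnar replicate 1 or 2, with adjusted p up to 0.169. The former was lost without lectin-only replicate 3 (adjusted p = 0.0757) and with dim values raised to the background level (0.0771). The dimmest, 1425911_a_at, differed by -0.97 ± 0.29 and -0.90 ± 0.29 (adjusted p = 0.0789 and 0.127), and passed in both comparisons without columnar replicate 3, at -1.31 and -1.24. Fgfr1 was lower in 3 of 3 probe sets in both comparisons, while the markers of ciliated cells were lower and those of basal cells higher in the same gates. Of the fibroblast markers, the 3 collagen genes were also lower in GFP+ than in columnar cells, at -3.20 to -3.88, and differed by -0.36 to 0.00 between lectin-only and columnar cells, while Dcn and Fbln1 were higher in both lectin-binding gates. The part of fibroblasts in the Fgfr1 values was not tested.

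Fgfr2, whose epithelial splice form is the receptor for FGF7 and FGF10, leaned the other way, and its probe sets differed in how far. The brightest, 1433489_s_at, read 11.59, 11.45 and 11.53 in columnar cells, 11.74, 11.50 and 11.60 in lectin-only cells, and 12.08, 12.10 and 12.28 in GFP+ cells. The GFP+ arrays lay above all 6 others, and the other gates overlapped. The difference of 0.63 ± 0.16 between GFP+ and columnar cells had an adjusted p of 0.0418 and fell short of the size a call required. Against lectin-only cells the difference was 0.54 ± 0.16 (adjusted p = 0.178), and lectin-only minus columnar was 0.09, with a 95% interval of -0.27 to 0.46.

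In the second Fgfr2 probe set, 1420847_a_at, the same order was wider. Columnar arrays read 7.67, 7.14 and 7.43, lectin-only arrays 7.80, 7.80 and 7.75, and GFP+ arrays 8.98, 8.85 and 8.66. Each GFP+ array stood above all 6 others. GFP+ cells exceeded columnar cells by 1.42 ± 0.19 (2.67-fold, adjusted p = 0.00136), a call kept in all 16 alternatives that could be run for it. They exceeded lectin-only cells by 1.04 ± 0.19 (2.06-fold, adjusted p = 0.0265), and that call was lost without any one of the 6 lectin-only and GFP+ arrays, with adjusted p up to 0.124 and a difference of 0.97 to 1.13. The third probe set, 1443211_at, lay under the background level on all columnar arrays and on 2 of 3 arrays in each other gate, and no fold is given for it. The files do not say which splice form each probe set reads.

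Fgfr3, a receptor known for its part in cartilage growth and in squamous and urothelial epithelia, was also brightest in the GFP+ gate, but 1 array governed its test. Its probe set 1421841_at read 10.69, 10.31 and 10.33 in columnar cells, 11.39, 11.49 and 11.46 in GFP+ cells, and 10.86, 10.77 and 8.03 in lectin-only cells. All GFP+ arrays lay above all arrays of the other gates, and the low lectin-only value belongs to replicate 3. GFP+ minus columnar was 1.00 ± 0.63 (adjusted p = 0.469) with the spread shared by all 9 arrays, and 1.00 ± 0.15 (adjusted p = 0.00565) without lectin-only replicate 3. With the 6 arrays of these gates alone it was also called (adjusted p = 0.0124). Lectin-only minus columnar was -0.56 ± 0.63 with that array and 0.37 ± 0.17 without it, and GFP+ minus lectin-only went from 1.56 ± 0.63 to 0.64 ± 0.17. These last 2 differences did not pass with or without it.

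The dimmer Fgfr3 probe set, 1425796_a_at, did not show the low value. Lectin-only replicate 3 read 5.64 there, between the 5.40 and 5.74 of replicates 1 and 2. Columnar arrays read 5.75, 5.34 and 5.62 and GFP+ arrays 6.78, 5.74 and 5.87. Its GFP+ minus columnar difference of 0.56 ± 0.28 did not pass (adjusted p = 0.331).

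**Figure D2:**
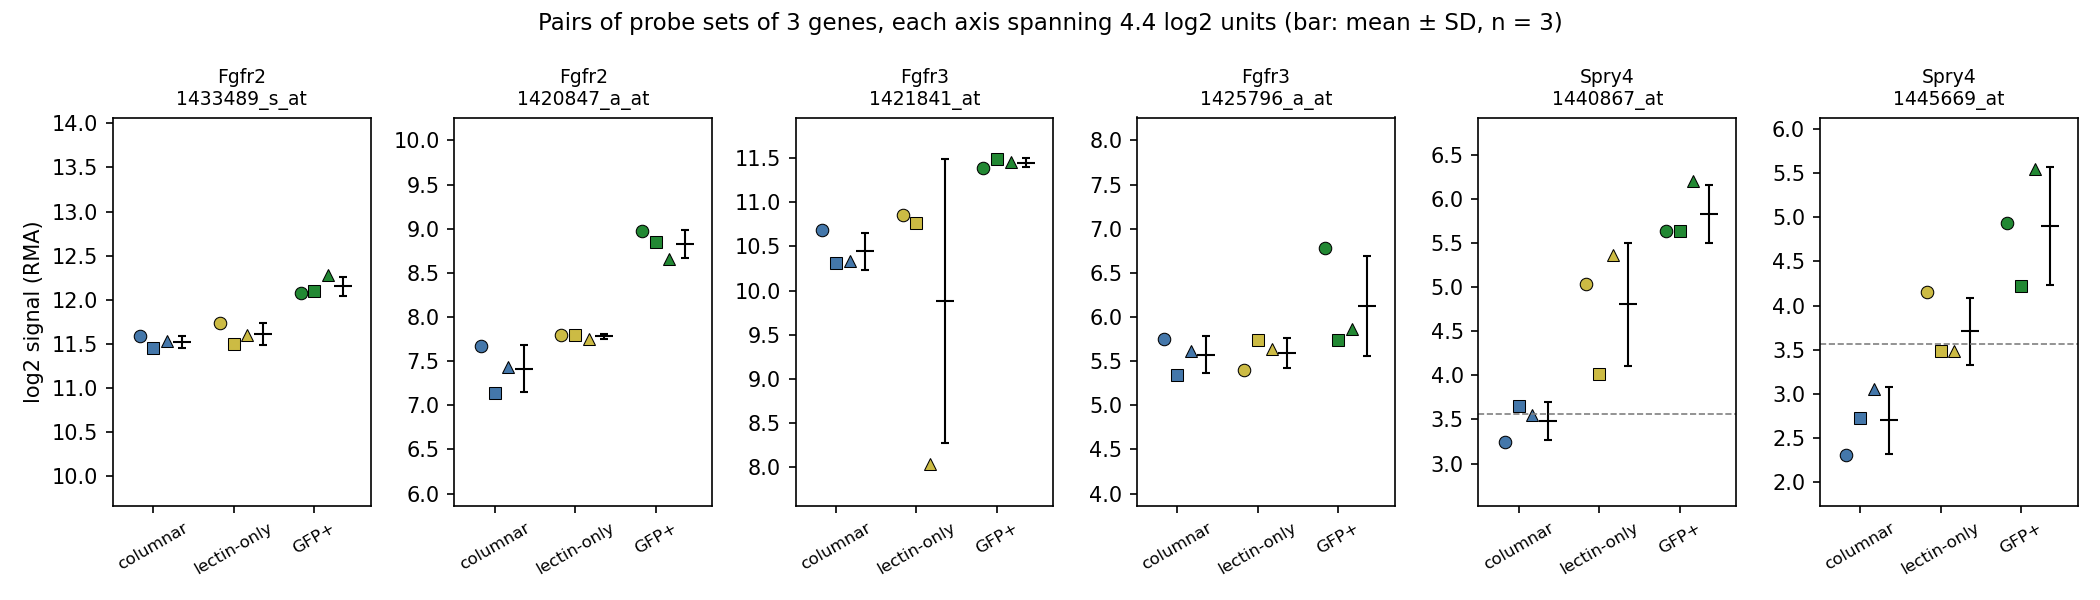
Log2 signal (vertical axes, each spanning 4.4 units) of pairs of probe sets of Fgfr2, Fgfr3 and Spry4 on the 9 arrays by gate, circles, squares and triangles for replicates 1, 2 and 3, with the mean and SD of 3 arrays and the background level dashed where it falls in range. The GFP+ arrays of Fgfr2 stand above the rest in both probe sets, and the lectin-only replicate 3 value of 8.03 for Fgfr3 is seen in only one of the pair.

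Among the ligand genes, only Fgf1 lay above the background level. Fgf1 encodes an FGF that lacks a signal peptide and can bind all the FGF receptors. Probe set 1423136_at read 10.51, 10.69 and 11.04 in columnar cells, 10.59, 10.19 and 10.96 in lectin-only cells and 11.06, 10.46 and 10.97 in GFP+ cells. The gates overlapped in every comparison, and the differences were 0.08 ± 0.26 for GFP+ minus columnar (95% interval -0.50 to 0.66), -0.17 ± 0.26 for lectin-only minus columnar and 0.25 ± 0.26 for GFP+ minus lectin-only. The second probe set, 1450869_at, was at 8.72 to 9.33 in columnar and 8.05 to 8.70 in GFP+ cells, and its difference of -0.58 ± 0.37 did not pass although these arrays did not overlap. The third, 1441042_at, lay between 4.90 and 6.22 on the 9 arrays and did not pass in any comparison.

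Fgf2, the basic FGF, and Fgf18, a ligand of skeletal and lung mesenchyme, were under the background level on all 9 arrays. Fgf2 read 2.38 to 2.94 over the 9 arrays and Fgf18 2.66 to 3.39, and each has a single probe set. No fold is given for either, and no order was read from these values. Fgfbp1 encodes a secreted protein that releases FGFs bound to heparan sulphate in the matrix. Its signal was 12.15, 11.17 and 11.17 in columnar cells, 10.81, 11.45 and 10.78 in lectin-only cells and 10.56, 10.86 and 10.19 in GFP+ cells. The columnar arrays were above the GFP+ arrays, while lectin-only replicate 2 lay above columnar replicates 2 and 3. GFP+ minus columnar was -0.96 ± 0.32 (adjusted p = 0.116), which misses both parts of the call, and its 95% interval ran from -1.68 to -0.25.

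Of the Sprouty genes, Spry1 and Spry4 were called and Spry2 was not. Spry1 read 8.50, 8.53 and 8.20 in columnar cells, 8.41, 9.16 and 8.99 in lectin-only cells and 10.09, 9.99 and 9.77 in GFP+ cells. The GFP+ arrays were above all others, and lectin-only replicate 1 lay among the columnar arrays. GFP+ cells exceeded columnar cells by 1.54 ± 0.23 (2.91-fold, adjusted p = 0.00246), and the call was kept under all 17 alternatives. GFP+ cells exceeded lectin-only cells by 1.09 ± 0.23 (2.14-fold, adjusted p = 0.0485), just past the threshold. That call was lost in 11 of 17 alternatives, including the replicate number as a block (adjusted p = 0.0622) and the removal of any array other than lectin-only replicate 2, with differences of 0.87 to 1.26 over all alternatives. Lectin-only minus columnar was 0.45 ± 0.23, with a 95% interval of -0.06 to 0.96.

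Spry4 showed the widest span of gate means of the 10 genes. Probe set 1440867_at read 3.24, 3.65 and 3.55 in columnar cells, 5.03, 4.02 and 5.36 in lectin-only cells and 5.64, 5.64 and 6.20 in GFP+ cells, so the 3 gates were ordered without overlap. GFP+ minus columnar was 2.35 ± 0.33 (5.09-fold, adjusted p = 0.00202), called under all 17 alternatives. Columnar replicates 1 and 3 lay under the background level, and with dim values raised to it the difference was 2.24. Lectin-only minus columnar was 1.33 ± 0.33 (adjusted p = 0.0508), which passed in 5 of 17 alternatives, such as without lectin-only replicate 2 (1.72, adjusted p = 0.00637) and with the replicate block (adjusted p = 0.0379). GFP+ minus lectin-only was 1.02 ± 0.33 (adjusted p = 0.225) and did not pass in any alternative.

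A second Spry4 probe set, 1445669_at, was also brightest in the GFP+ gate. It read 2.31, 2.73 and 3.06 in columnar cells, 4.15, 3.49 and 3.49 in lectin-only cells and 4.93, 4.22 and 5.55 in GFP+ cells. All columnar arrays and lectin-only replicates 2 and 3 were under the background level, so no order between those gates was read. With the background level of 3.56 as the floor, GFP+ cells were at least 2.54-fold higher than columnar cells. The GFP+ mean of 4.90 was near 4.89, the 99th percentile of the silent probe sets. Without a floor the fitted difference was 2.2 ± 0.35 and was called (limma adjusted p = 0.00392). With dim values raised to the level this call was lost (adjusted p = 0.0824). The other pair, 1422020_at and 1422021_at, stayed near or under the background level, with 3.98 on GFP+ replicate 3 as the highest value, and no fold is given for them. Spry4 thus rests on 2 of its 4 probe sets.

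Spry2 read 11.50, 11.88 and 11.65 in columnar cells, 11.92, 11.56 and 12.14 in lectin-only cells and 12.11, 12.09 and 12.56 in GFP+ cells on 1436584_at. The GFP+ arrays were above the columnar arrays and overlapped with the lectin-only arrays. GFP+ minus columnar was 0.58 ± 0.22 (adjusted p = 0.179), with a 95% interval of 0.08 to 1.07. In the dimmer probe set 1421656_at the difference was 0.87 ± 0.29 (adjusted p = 0.121) and GFP+ minus lectin-only was 0.87 ± 0.29 (adjusted p = 0.244). Neither probe set of Spry2 was called. The 95% interval of GFP+ minus columnar was 0.21 to 1.52 for the dimmer probe set, and 1.03 to 2.05 for Spry1. Whether Spry1 and Spry2 differ in this was not tested.

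**Figure D3:**
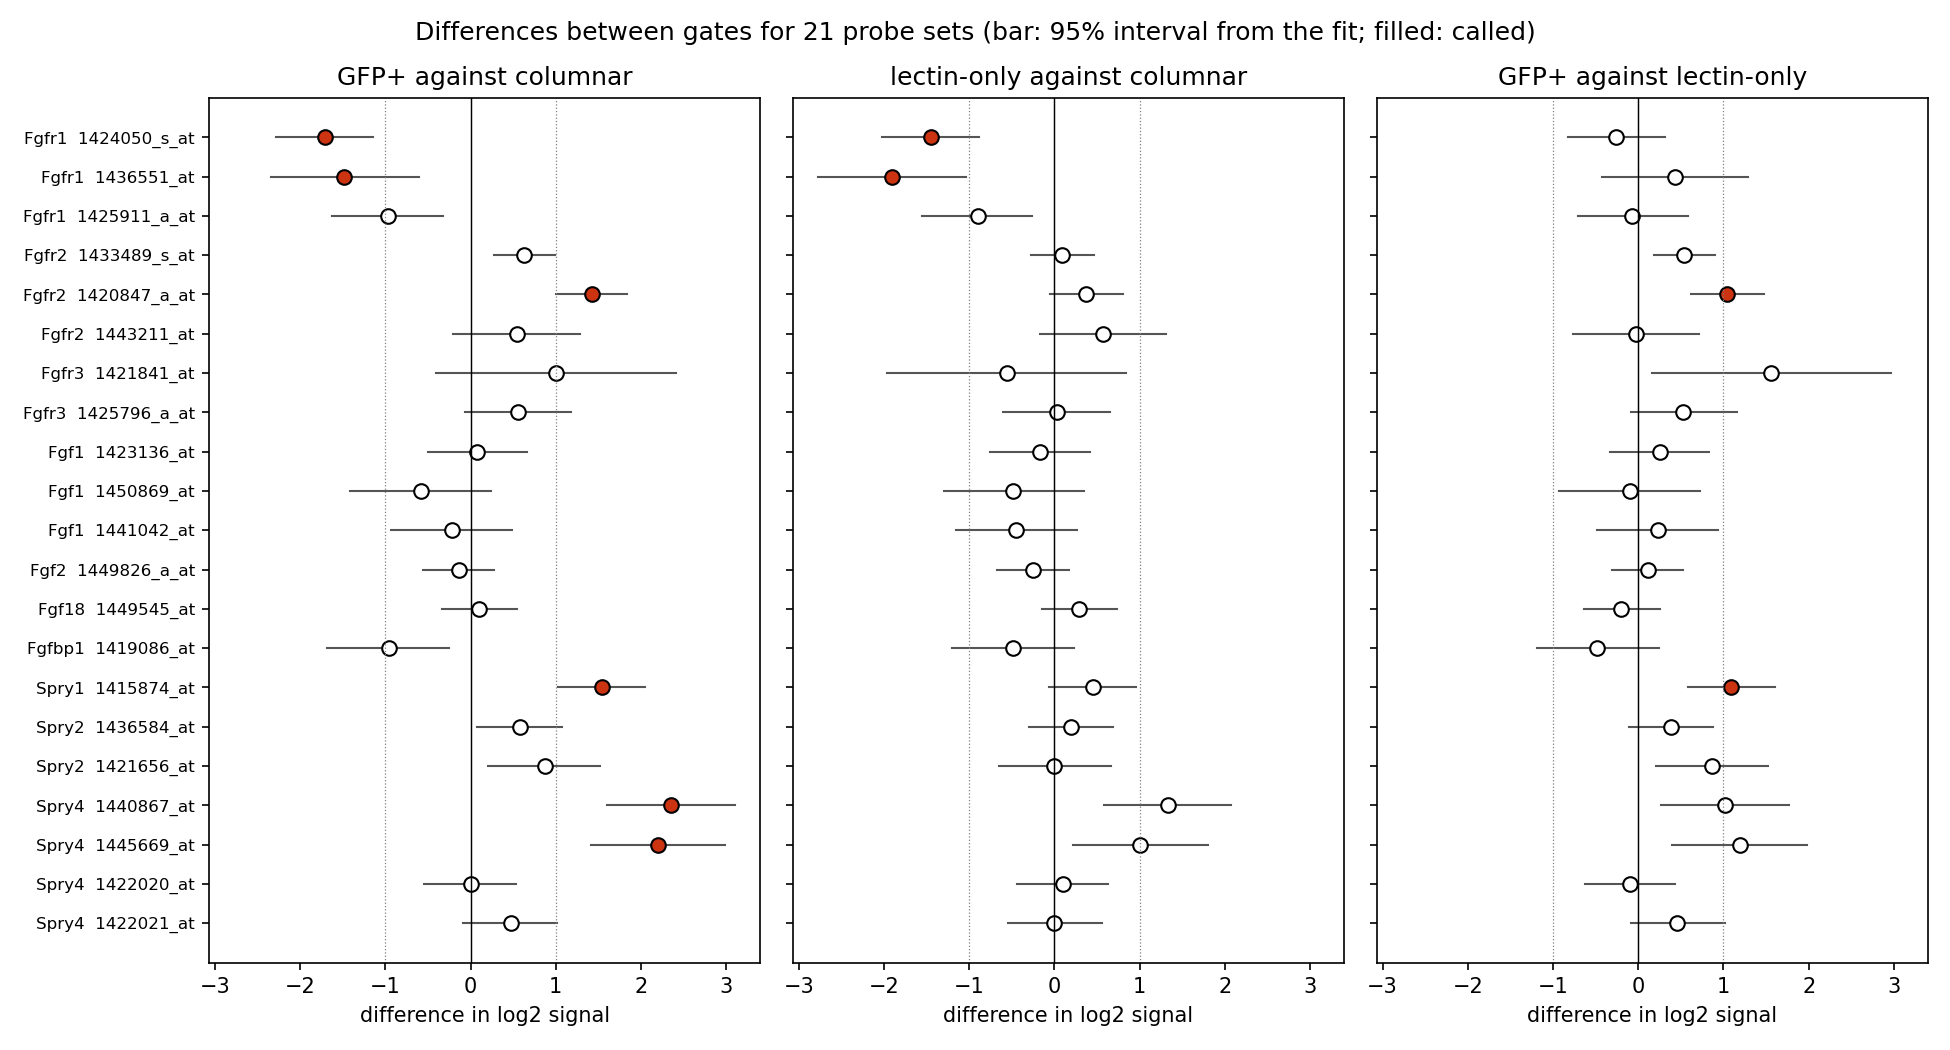
Difference in log2 signal between gates (horizontal axis) for each of the 21 probe sets in the 3 comparisons, with the 95% interval of the limma fit, filled where called and with dotted lines at -1 and 1. Fgfr1 lies left of 0 in all 3 probe sets against columnar cells, while 2 of 4 Spry4 probe sets, Spry1 and 1420847_a_at of Fgfr2 are filled on the right in GFP+ against columnar.

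By gate means of the brightest probe sets, Spry1, Spry2, Spry4 (1440867_at) and Fgfr2 ran from GFP+ through lectin-only to columnar. Fgfr1 and Fgfbp1 ran the reverse way. Dimmer probe sets did not all keep these orders. Fgfr1 1436551_at had a mean of 6.05 in GFP+ and 5.63 in lectin-only cells. Spry2 1421656_at had 4.32 in both lectin-only and columnar cells. Fgf1 had no order beyond its spread. Fgfr3 had its lowest mean in the lectin-only gate, which rests on lectin-only replicate 3. Without that array, lectin-only minus columnar was 0.37 for Fgfr3. For Spry1, the lectin-only and columnar gates are neighbours whose difference did not pass, and for Fgfr1 they are the GFP+ and lectin-only gates. For Fgfr2, Fgfbp1, Spry2 and Spry4, neither neighbouring pair passed in the brightest probe set. In the second Fgfr2 probe set, 1420847_a_at, GFP+ against lectin-only cells was called.

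The stretch before the gene start is shown for Spry1 and Fgfr2, which were higher in GFP+ cells than in both other gates by at least 1 of their probe sets, and for Fgfr3, whose GFP+ arrays also lay above the rest. Sequences are from RefSeq (GRCm38.p6), the 250 bases before the annotated start, so upstream of the first exon of the model, written 5′ to 3′ on the strand of the gene. Capitals mark GGGCGG, the GC box bound by Sp-family factors, on either strand. The windows are Spry1 at chr3:37639697-37639946 (plus strand), Fgfr2 at chr7:130266809-130267058 (minus strand) and the first of 2 Fgfr3 starts at chr5:33721474-33721723 (plus strand).
Spry1: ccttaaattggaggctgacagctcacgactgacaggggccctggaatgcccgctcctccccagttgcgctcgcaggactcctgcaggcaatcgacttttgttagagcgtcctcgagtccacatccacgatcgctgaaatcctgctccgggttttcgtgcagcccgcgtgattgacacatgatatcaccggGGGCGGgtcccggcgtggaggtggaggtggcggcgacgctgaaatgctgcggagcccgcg
Fgfr2: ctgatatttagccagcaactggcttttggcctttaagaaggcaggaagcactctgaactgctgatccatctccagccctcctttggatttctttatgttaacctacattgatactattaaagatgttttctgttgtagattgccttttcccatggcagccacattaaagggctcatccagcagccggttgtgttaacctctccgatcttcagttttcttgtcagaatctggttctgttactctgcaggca
Fgfr3: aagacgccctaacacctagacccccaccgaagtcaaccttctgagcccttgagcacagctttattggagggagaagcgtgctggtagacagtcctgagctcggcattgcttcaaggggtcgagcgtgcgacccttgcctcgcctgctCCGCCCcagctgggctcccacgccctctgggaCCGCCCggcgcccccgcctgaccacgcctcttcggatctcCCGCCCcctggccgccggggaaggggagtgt
Spry1 held 1 GC box, Fgfr3 held 3 and Fgfr2 none, where 32.7% of 32851 windows of this length held at least 1. Their GC content was 62.4% for Spry1, 66.8% for Fgfr3 and 44.0% for Fgfr2, against a median of 52.4%. Also searched on both strands were CCGGAAG, a core bound by ETS factors (in 6.91% of all windows), TGANTCA, the AP-1 site (6.75%), and CACGTG, the E-box bound by Myc (6.02%). These 3 had 0 matches in the 8 windows searched, which cover 7 of the 10 genes, and no matches overlapped between motifs. Fgfr1, Fgf1 and Spry4 were left out of this search, so their starts were not tested for any of the motifs. This describes the letters in these windows and says nothing of binding.

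The genes whose signal followed that of a member most closely over the 9 arrays were found among 3274 other genes with gate means at least 1 apart. For Fgfr1 they were Aldh1l1 (Pearson r = 0.978), Papss2 (0.973) and Bex3 (0.971), all lower in the lectin-binding gates. Those for Spry1 were Sema4c (0.983), Fads2 (0.970) and Rtl3 (0.966), and for Spry4 Tenm2 (0.990), Myef2 (0.988) and Chst11 (0.980). Tenm2, a teneurin adhesion protein, read 8.23 on average in GFP+, 6.29 in lectin-only and 3.41 in columnar cells. These correlations are over 9 arrays that fall into 3 gates, so they mostly describe the order of the gates.

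Around the 10 genes, 108 measured genes of the wider pathway in 7 lists were compared in the same fit. The lists were chosen with earlier results of these data known, so the shares below are descriptive and do not test the pathway. Of the 108, 8 were under the background level on all arrays. The shares of all genes count dim and silent genes too. In GFP+ against columnar cells 22 were higher (20.4%, beside 5.36% of all genes) and limma called 0 lower, where 1 had an unadjusted p under 0.05 and a negative difference. In lectin-only against columnar cells 11 were higher (10.2%, beside 5.85% of all genes) and 0 lower (3 by unadjusted p). In GFP+ against lectin-only cells 4 were higher (3.7%, beside 0.654% of all genes) and 0 lower (2 by unadjusted p). The shares of all genes called lower were 4.96%, 2.05% and 2.09% in that order. Median differences of the 108 genes were 0.22, 0.25 and 0.09, against -0.04, 0.07 and -0.10 over all genes. The medians over all genes moved to -0.12, -0.17 and 0.06 with arrays centred on their medians.

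Among 19 other FGF family genes, 1 was higher in GFP+ than in columnar cells, beside 5.36% of all genes. Limma called 0 in either other comparison (0 and 1 by unadjusted p). The gene called was Fgf16, at 1.61 ± 0.34 (adjusted p = 0.0166), with gate means of 5.70 in GFP+, 4.52 in lectin-only and 4.10 in columnar cells. Leaving out columnar replicate 1 or columnar replicate 2 ended this call. Of the 19, 5 were under the background level on all arrays, among them Fgf7 and Fgf10, the mesenchymal ligands of epithelial FGFR2, at means of 2.49 to 2.56 and 2.90 to 3.21 over the gates. The list median in GFP+ against columnar was -0.18.

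Of 12 other receptor and co-receptor genes, 5 were higher in GFP+ than in columnar cells, 2 in lectin-only than in columnar cells and 1 in GFP+ than in lectin-only cells, with limma calling 0 lower in each. The shares of all genes called higher were 5.36%, 5.85% and 0.654% in that order. Flrt2, a leucine-rich repeat membrane protein that can associate with FGF receptors, had the largest difference, with means of 9.34 in GFP+, 8.57 in lectin-only and 4.03 in columnar cells. It differed by 5.30 ± 0.29 (adjusted p = 1.39e-05) and 4.54 ± 0.29 (adjusted p = 6.09e-05) from columnar cells, and all 3 of its probe sets were called in the former. Its relative Flrt3 differed by 1.63 ± 0.25 (adjusted p = 0.00279) between GFP+ and columnar cells. N-cadherin, Cdh2, an adhesion molecule that interacts with FGFR1, differed by 1.94 ± 0.25 there and by 1.25 ± 0.25 (adjusted p = 0.0387) between GFP+ and lectin-only cells. That second call was lost in 11 of 17 alternatives, among them without any single array other than lectin-only replicate 3. Fgfbp3, a relative of Fgfbp1, was higher than in columnar cells in both lectin-binding gates, at 1.49 ± 0.27 and 1.74 ± 0.27. Fgfbp1 lay on the other side of 0 in both, at -0.96 and -0.49, and did not pass. The fifth gene, L1cam, was named after its values were seen (1.21 ± 0.29, adjusted p = 0.0294, lost without any GFP+ array or columnar replicate 1 or 3).

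Among 13 feedback inhibitors outside the Sprouty genes followed here, 2 were higher in GFP+ than in columnar cells, beside 5.36% of all genes. Dusp7, a phosphatase that switches off ERK, differed by 2.08 ± 0.24 (adjusted p = 5.89e-04) and all 3 of its probe sets were called. Spred2, a Sprouty-related inhibitor of RAS signalling, differed by 1.47 ± 0.18 (adjusted p = 9.42e-04) on its brightest probe set, while 4 of its 5 probe sets were not called and ranged from 0.00 to 1.54. Dusp7 was also higher in lectin-only than in columnar cells at 1.09 ± 0.24 (adjusted p = 0.0273), a call lost in 8 of 17 alternatives, as when a columnar array or replicate 1 or 3 of the lectin-only gate was removed. Dusp6, the phosphatase most often read as a sign of FGF signalling, was chosen after its values were seen: it lay at 12.22 ± 0.13 (SD), 11.97 ± 0.07 and 11.88 ± 0.06 in GFP+, lectin-only and columnar cells, and its largest difference, 0.34 ± 0.16, did not pass (adjusted p = 0.290).

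Of 11 measured transcription factors and targets of the ERK cascade, 3 were higher in GFP+ than in columnar cells, beside 5.36% of all genes. Myc differed by 3.51 ± 0.27 (adjusted p = 7.7e-05) and was ordered across the gates, with 1.85 ± 0.27 for lectin-only minus columnar and 1.66 ± 0.27 for GFP+ minus lectin-only (adjusted p = 0.0184, lost without lectin-only replicate 1 or 3 or GFP+ replicate 1 or 2). The ETS factor gene Etv5, a common target of FGF signalling, differed by 2.17 ± 0.52 (adjusted p = 0.0319), with columnar arrays spread by an SD of 1.20. Of its 3 probe sets 1 was called, with 0.59 as the lowest difference, and the call was lost in 6 of 17 alternatives, such as without lectin-only replicate 1 or 3 or GFP+ replicate 1 or 2. Fosl1, an AP-1 subunit, differed by 1.86 ± 0.21 (adjusted p = 5.53e-04), and by 1.16 ± 0.21 (adjusted p = 0.0108) between lectin-only and columnar cells. The latter call was lost with arrays centred, and in GFP+ against columnar 1 of its 2 probe sets was called, the other at 0.81. Of the 19 measured adaptors and kinases, 2 were higher in GFP+ than in columnar cells, beside 5.36% of all genes. They were Pik3r1, a subunit of PI3-kinase, at 1.36 ± 0.24 (adjusted p = 0.00646), and the docking protein gene Frs3 at 1.18 ± 0.31 (adjusted p = 0.0447). The Frs3 call was lost in 9 of 17 alternatives, as when a columnar array, replicate 2 of the lectin-only gate, or GFP+ replicate 1 or 3 was removed.

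The heparan sulphate list had the most measured genes of the pathway lists. Of 24 measured proteoglycan and enzyme genes, 9 were higher in GFP+ than in columnar cells, 6 in lectin-only than in columnar cells and 2 in GFP+ than in lectin-only cells, with limma calling 0 lower in each. The shares of all genes called higher were 5.36%, 5.85% and 0.654% in that order. The glypican Gpc2 had means of 8.19 in GFP+, 8.09 in lectin-only and 4.26 in columnar cells, a difference of 3.93 ± 0.36 (adjusted p = 1.81e-04) for GFP+ and 3.83 ± 0.36 for lectin-only cells. Gpc3 differed by 3.12 ± 0.49 and 3.07 ± 0.49. The syndecan Sdc3 differed by 2.27 ± 0.28 and 1.65 ± 0.28, although another of its 3 probe sets lay at -0.25. Hs6st2, which adds sulphate to the 6-O position of heparan sulphate, was called in all 3 comparisons on its brightest probe set, with means of 8.73 in GFP+, 6.52 in lectin-only and 5.29 in columnar cells. Its differences were 3.45 ± 0.26 (adjusted p = 6.93e-05) for GFP+ minus columnar, 2.21 ± 0.26 (adjusted p = 0.00413) for GFP+ minus lectin-only and 1.23 ± 0.26 (adjusted p = 0.0228, lost without columnar replicate 1 or 2 or lectin-only replicate 1 or 3) for lectin-only minus columnar. Of its 4 probe sets, 2 were called in GFP+ against columnar, and the lowest difference was 0.56. The count of 2 for GFP+ against lectin-only fell to 1 without lectin-only replicate 1 or 3 or without any one GFP+ array. The list median in GFP+ against columnar was 0.67, beside -0.04 over all genes.

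**Figure D4:**
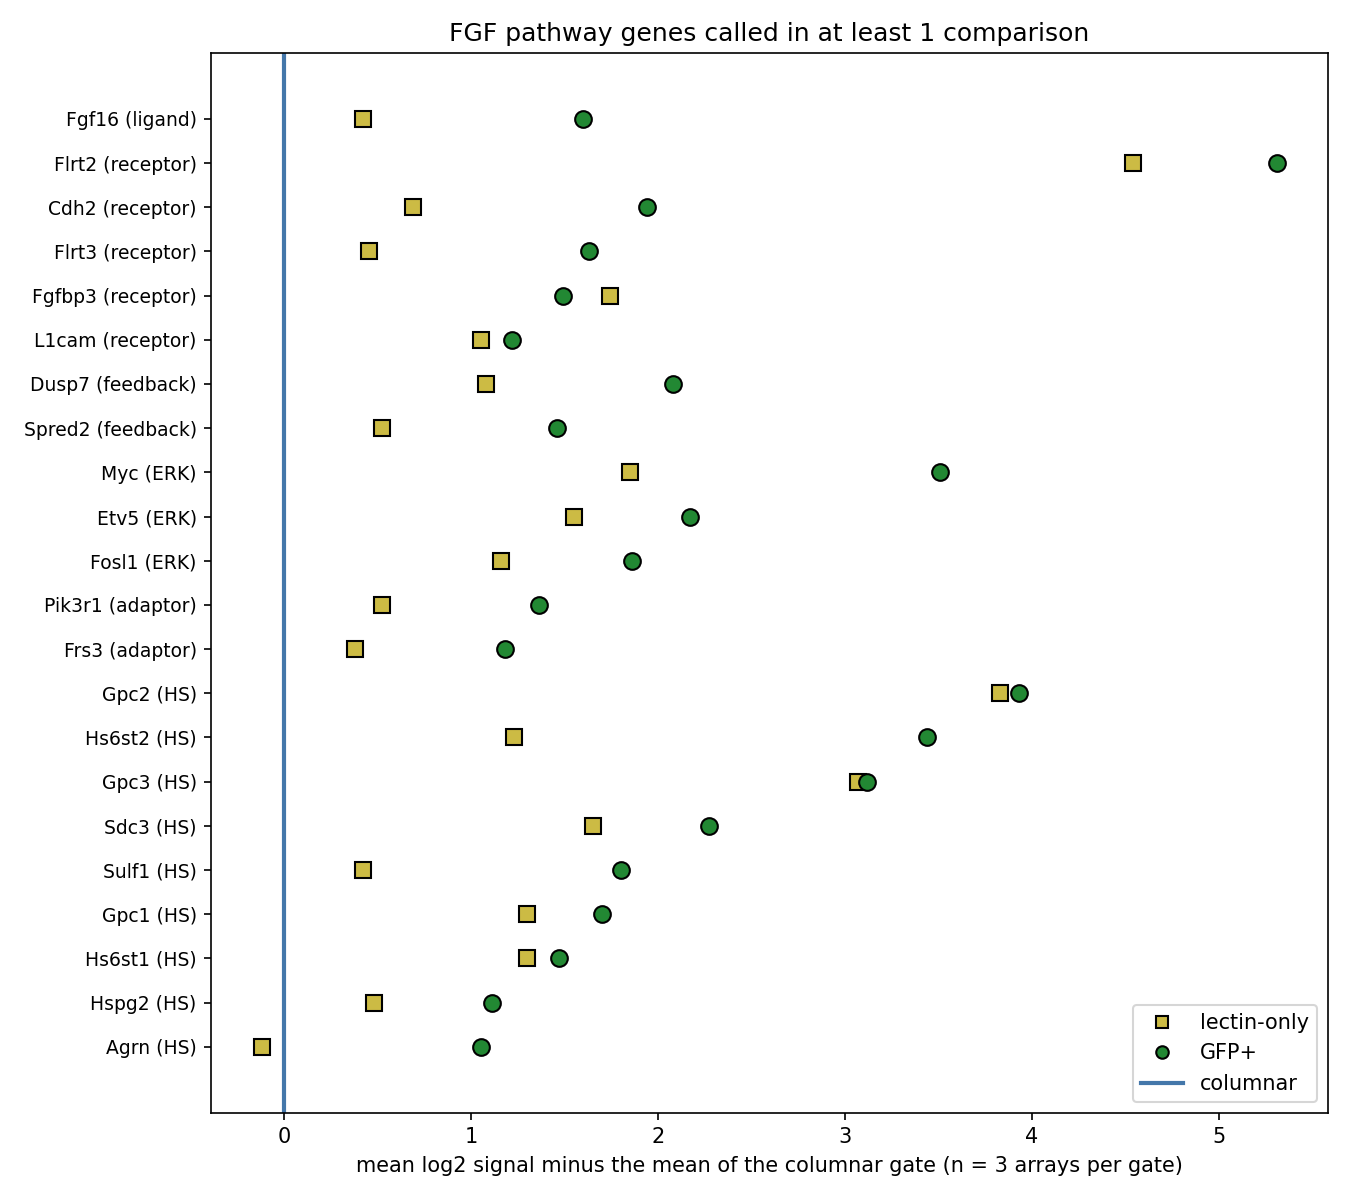
Mean log2 signal of the lectin-only (squares) and GFP+ (circles) gates minus the columnar mean (line at 0), for the 22 pathway genes called in at least 1 comparison, grouped by list, with 3 arrays per gate. All 22 circles lie right of the line, from Agrn at 1.04 to Flrt2 at 5.30. This follows from the choice, since all 22 were called higher in GFP+ than in columnar cells. The squares of Gpc2 and Gpc3 lie close to their circles, while those of Hs6st2 and Myc lie between.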

How the data were processed

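The authors deposited log2 signals per probe set for 9 arrays, made with RMA per the submitters' processing notes. Software, version and filters are not given in the sources used here. Control probe sets (64 of 45101) were left out. Gene names came from the platform annotation, updated through RefSeq (34741 of 34945 probe sets with 1 symbol). Group means were fitted to all 9 arrays with limma 3.58.1 in R 4.3.3 (lmFit, eBayes without trend; 6 residual and 3.48 prior degrees of freedom), and p-values adjusted by Benjamini-Hochberg over 45037 probe sets per comparison. The background level is the 95th percentile of 80 olfactory and vomeronasal receptor probe sets; below it on all 3 arrays of a gate, a difference is a bound against that level. The number of arrays limits precision: the median SE over genes was 0.25. The script was tested on simulated data. The members, gene lists, alternatives and the rule for named genes (all members; up to 4 called genes of largest difference per pathway list, or 2 of highest level; the 3 most correlated genes) were chosen with earlier results of these data known. Dusp6, Fgf7, Fgf10, L1cam, Agrn, Col1a1, Col3a1, Dcn, Fbln1 and Thy1 were named outside the rule, after their values were seen.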

Additional observations from a re-analysis of the deposited data

How the results depend on the processing

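Over 17 alternatives, the 63 differences of the 21 probe sets gave 1023 values, of which 981 kept their side of the threshold, 32 lost a call, 10 gained one, and 0 called values changed sign. Fgfr1 remained the gene called lower against columnar cells in each alternative. For GFP+ against lectin-only, the count of member genes higher was 0 with the replicate block, 0 with the 2 gates alone, 0 with values under background set to it, and 2 with the probe set of largest variance standing for a gene (Fgfr2 then joins Spry1); it ranged from 0 to 1 with an array left out. For lectin-only against columnar, the count higher was 1 (Spry4) after a further quantile normalization, with the replicate block, with one probe set per gene and with the filter on dim probe sets, and 0 to 1 with an array left out. The count of pathway genes higher in GFP+ than in lectin-only cells was 4, and became 8 with arrays centred, 8 after quantile normalization, 2 with dim values raised, and 1 to 4 with an array left out. The labels do not say that replicate numbers pair the arrays, and the data do not settle it: after removing gate means, same-numbered arrays of different gates correlated at -0.07 to 0.33, with 4 of 9 pairs over 0.1, and differently numbered arrays at -0.47 to 0.17, with 3 of 18 over 0.1; not every array correlated best with its own number. The replicate block gave 2 higher and 1 lower member genes in GFP+ against columnar. Counts over all genes that moved by over 1.5 times were those higher in lectin-only than in columnar cells (1065; 649 with dim values raised), those lower there (373; 635 with arrays centred, 212 with dim values raised, 237 at least with an array left out) and those between GFP+ and lectin-only cells (119 higher and 381 lower; 196 higher with arrays centred, 43 and 144 with dim values raised, and at least 42 and 158 with an array left out). Signal over background limits Fgf2, Fgf18 and the columnar values of Spry4: of all member values, 25.4% lay under the background level, which was 3.24 at the 90th and 4.89 at the 99th percentile of the silent genes.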

Other observations

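FGFR2 splice choice in epithelia is set by RNA-binding proteins, and 10 genes of such regulators were measured. Limma called 0 of them in each of the 3 comparisons, where 1 in each had an unadjusted p under 0.05. Esrp1, the epithelial splicing regulator that favours the epithelial form, lay at 12.48 ± 0.17 (SD, n = 3), 12.63 ± 0.06 and 12.47 ± 0.03 in GFP+, lectin-only and columnar cells, and Hnrnpf at 12.16 ± 0.24, 12.11 ± 0.15 and 12.16 ± 0.05.

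The genes that followed Fgfr3 most closely over the 9 arrays were Zfp449 (r = 0.982), Zfp52 (0.976) and Cnot9 (0.974). Since they were chosen over arrays that include the low Fgfr3 value of lectin-only replicate 3, their low readings there, at 3.15, 4.32 and 6.28, follow from the choice. Without that array their correlations were 0.910, 0.860 and 0.854. On lectin-only replicate 3, 36 of 18193 genes lay at least 2 log2 units below both other arrays of the gate, against 124 on GFP+ replicate 1 and 0 to 29 on the other 7 arrays.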
